A study of Mus musculus with 9 samples.

Results

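The genes described here are 10 targets of the hypoxia-inducible factors (HIF) that do not encode enzymes or transporters of glycolysis, among 24421 genes counted by RNA sequencing of D3 mouse embryonic stem (ES) cells. They are Bnip3, Bnip3l, Ndufa4l2, Ak4, Ero1l, Bhlhe40, Ankrd37, Ndrg1, Vegfa and Adm, chosen by name, with their levels in these libraries already known. All 10 passed the filter on low counts. The study had 3 groups of 3 libraries. The LAMP2A+DM-αKG group was LAMP2A-overexpressing cells given DM-αKG, a cell-permeable ester of α-ketoglutarate, at 4 mM for 72 h. The LAMP2A group was the overexpressing cells without it, and the VT group carried the stable pCDH control vector. All groups were grown without feeder cells on gelatin in serum with the LIF product ESGRO. LAMP2A, a splice form of LAMP2 in the lysosome membrane, is the receptor of chaperone-mediated autophagy. No group combined the control vector with DM-αKG, so LAMP2A+DM-αKG differed from VT by 2 factors whose shares cannot be told apart.

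HIF is a pair of proteins, an oxygen-regulated α subunit (HIF1A or EPAS1) and ARNT, that binds the core sequence ACGTG or GCGTG near its target genes. Prolyl hydroxylases (the Egln genes) use oxygen and α-ketoglutarate to hydroxylate the α subunit, which the VHL ubiquitin ligase then marks for destruction. Besides glycolysis, HIF targets act on mitochondria, protein folding, transcription and the growth of blood vessels. Transcript counts do not measure HIF protein or its binding.

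Library totals ran from 23636074 to 32809875 counts, and levels are given as CPM, each library's counts scaled to a common size (TMM). Lamp2, the overexpressed gene, had 97.2 ± 2.00 CPM in LAMP2A+DM-αKG, 404 ± 2.24 in LAMP2A and 58.2 ± 1.64 in VT (SD, n = 3 libraries each, as in all errors below). Its level in the treated cells was thus 4.16-fold below that in LAMP2A, and whether that has a part in the differences below was not tested. Gene-level counts do not separate the LAMP2A form or the introduced copy from the other Lamp2 transcripts. The labels do not state whether replicate libraries were grown as separate cultures or clones, and p-values therefore reflect the spread of these libraries alone, which may be technical. In bulk RNA, fewer cells of a type and less RNA per cell cannot be told apart. Of the 12 markers of naive ES cells, 11 were tested, and all 11 were lower in LAMP2A than in VT and higher in LAMP2A+DM-αKG than in LAMP2A. Their summed level was 4727 to 4761 CPM in LAMP2A+DM-αKG, 1307 to 1319 in LAMP2A and 5598 to 5711 in VT, and none was at 0 in any group. Fibroblast and smooth muscle markers, with 14 of 15 tested, summed to 2145 to 2230.0 CPM in LAMP2A+DM-αKG, 6308 to 6377 in LAMP2A and 1454 to 1658 in VT. Of these, 13 were higher in LAMP2A than in VT and 1 (Thy1) was lower. All 14 were lower in LAMP2A+DM-αKG than in LAMP2A, and Lum was at 0 in VT. The 9 endothelial markers summed to 85.3 to 88.1, 47.9 to 50.2 and 97.9 to 102 CPM in LAMP2A+DM-αKG, LAMP2A and VT, with Emcn at 0 in LAMP2A+DM-αKG and VT. Pecam1 made up most of that sum in LAMP2A+DM-αKG (66.5 CPM) and VT (74.4 CPM) but not in LAMP2A (19.9 CPM). Its order across the groups was that of the summed naive ES cell markers. The 7 tested endothelial markers went both ways. In LAMP2A+DM-αKG against LAMP2A 2 were higher and 3 lower, and in LAMP2A against VT 3 were higher (Sox17, Kdr and Cdh5) and 3 lower. Of all genes tested, 41.1% were higher and 42.1% lower in LAMP2A+DM-αKG than in LAMP2A. Between LAMP2A and VT, 43.0% were higher and 42.1% lower in LAMP2A. Levels of the listed markers moved with the groups, and their part in each result below was not tested.

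Promoter sequence was at hand from RefSeq (GRCm38.p6) for 6 of the 10 genes: Bnip3, Ankrd37, Ero1l (as Ero1a), Ak4, Adm and Vegfa. The 250 bases before the start, the most upstream one where several are listed, were searched for ACGTG and GCGTG on both strands. Bnip3 held 5 matches, Ankrd37 4, Ero1l 3, Ak4 2, Adm 2 and Vegfa 0. The ACGTG matches of Bnip3 lie on both strands of 1 palindrome and share bases, and 2 of the Ankrd37 matches also overlap. Among all 27025 promoters of the table, 38.6% held at least 1 match of either motif, 16.5% held ACGTG and 28.3% held GCGTG. Among the 17492 promoters of protein-coding genes, 43.9% held at least 1 match, 20.2% at least 2 and 8.55% at least 3. A match describes the letters only, and no binding data were used. The windows below run from base -250 to base -21, 5′ to 3′ on the gene's strand, with matches of either motif on either strand in capitals. They show the gene with most matches, a second with a different arrangement, and 1 gene each that was lower and higher in LAMP2A than in VT. Bnip3 is at chr7:138909527-138909756 (minus strand), Ankrd37 at chr8:45999871-46000100 (minus), Ak4 at chr4:101419039-101419268 (plus) and Adm at chr7:110627407-110627636 (plus). The RefSeq start used for Ankrd37 is downstream of the GENCODE vM21 one. Its window therefore lies inside the GENCODE span of the gene, chr8:45996902-46005707, and the Ero1l window overlaps its gene in part.
Bnip3: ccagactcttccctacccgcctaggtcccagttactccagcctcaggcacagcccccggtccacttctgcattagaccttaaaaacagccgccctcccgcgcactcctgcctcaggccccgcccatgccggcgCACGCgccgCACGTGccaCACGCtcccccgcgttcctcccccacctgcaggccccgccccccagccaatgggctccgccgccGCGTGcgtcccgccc
Ankrd37: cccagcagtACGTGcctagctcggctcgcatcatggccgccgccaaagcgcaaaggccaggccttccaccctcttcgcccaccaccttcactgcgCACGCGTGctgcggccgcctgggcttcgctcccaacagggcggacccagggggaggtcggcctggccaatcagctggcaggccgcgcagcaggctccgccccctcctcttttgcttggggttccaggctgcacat
Ak4: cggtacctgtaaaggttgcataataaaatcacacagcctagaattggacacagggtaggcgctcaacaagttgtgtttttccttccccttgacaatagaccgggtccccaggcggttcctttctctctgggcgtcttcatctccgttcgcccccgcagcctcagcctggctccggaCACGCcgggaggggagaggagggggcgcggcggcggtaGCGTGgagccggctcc
Adm: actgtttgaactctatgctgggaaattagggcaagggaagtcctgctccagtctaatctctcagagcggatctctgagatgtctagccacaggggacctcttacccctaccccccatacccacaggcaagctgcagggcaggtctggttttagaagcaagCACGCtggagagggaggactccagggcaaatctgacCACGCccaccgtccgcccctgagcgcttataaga
In Bnip3, 4 of the matches lie in a cluster between bases -117 and -95 and the other one starts at -35. Ankrd37 has a match near the far end of its window, a pair of overlapping ones that starts at -155 and another match at -6 that the printed window leaves out. Ak4 carries GCGTG matches from -74 and from -36, and Adm from -90 and from -54. Neither Ak4 nor Adm holds ACGTG in these 250 bases.

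Summed over the 10 genes, the level was 1091 to 1104 CPM in LAMP2A+DM-αKG, 505 to 509.7 in LAMP2A and 508 to 522 in VT. The sum was therefore near 2-fold higher in every treated library than in any other, while LAMP2A and VT overlapped. Behind this overlap, single genes differed between LAMP2A and VT in both directions.

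**Figure D1:**
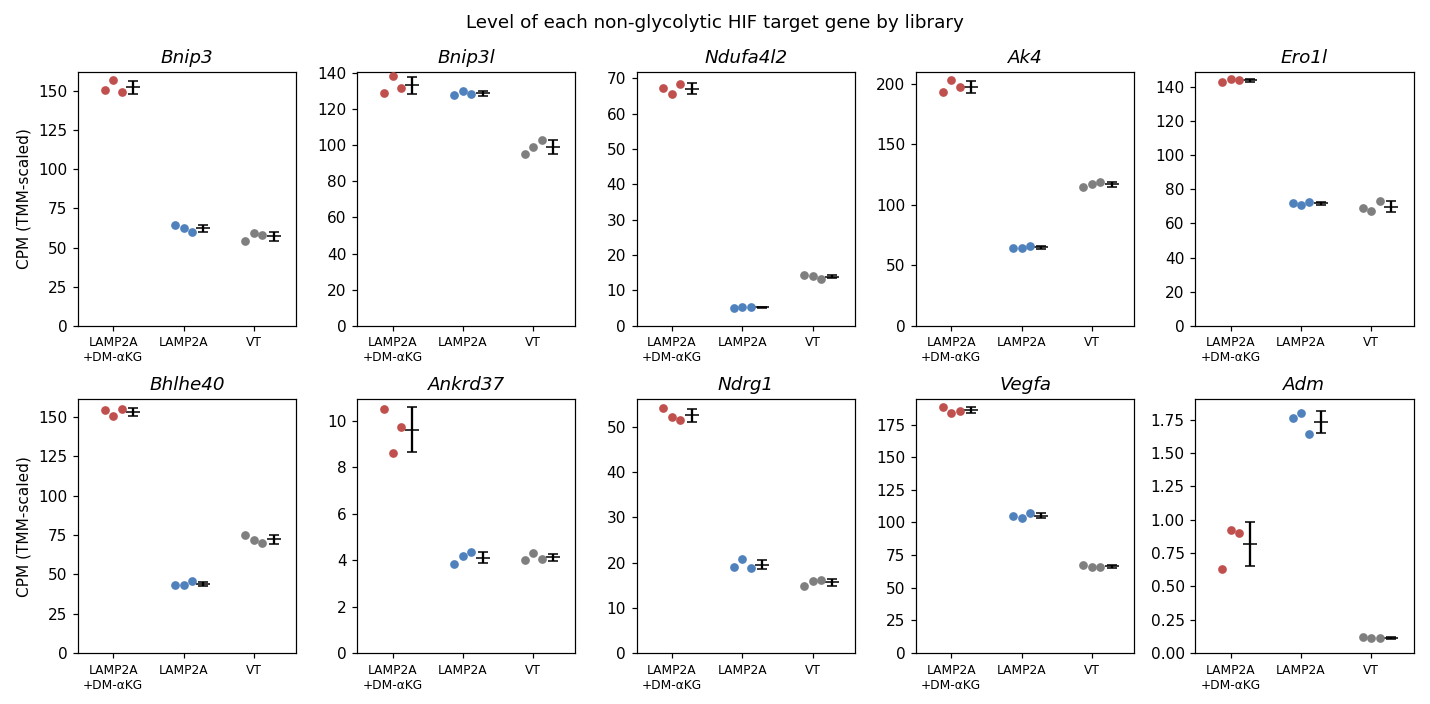
Level of each of the 10 genes in every library, in CPM on linear axes that start at 0 and differ in range between genes, by group (LAMP2A+DM-αKG, LAMP2A, VT). Points are libraries and bars beside them the group mean ± SD; apart from Bnip3l and Adm, every gene is higher in all 3 treated libraries than in any other, Bnip3l overlaps between LAMP2A+DM-αKG and LAMP2A, and Adm is highest in LAMP2A.

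Genes acting on mitochondria came first. BNIP3 and BNIP3L (NIX) sit in the outer mitochondrial membrane and recruit the autophagy machinery for mitophagy, the removal of mitochondria. Bnip3 (chr7:138890836-138909519, minus strand, mm10) had 150.4, 157 and 149.7 CPM in LAMP2A+DM-αKG, 64.3, 62.2 and 60.2 in LAMP2A, and 53.9, 59.2 and 58.1 in VT. The treated libraries stood far above both other groups, while LAMP2A exceeded VT only narrowly. Bnip3 was 2.45-fold higher in LAMP2A+DM-αKG than in LAMP2A (log2 fold change 1.29, SE 0.0364) and 1.09-fold higher in LAMP2A than in VT (0.13, SE 0.0400). That small difference no longer passed the test without VT replicate 1 (log2 fold change 0.09).

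Bnip3l (chr14:66985239-67008877, minus strand) is the paralog of Bnip3. It had 129, 138 and 132 CPM in LAMP2A+DM-αKG, 128, 130.0 and 128 in LAMP2A, and 95.0, 99.1 and 103 in VT. LAMP2A+DM-αKG and LAMP2A overlapped, and both stood above every VT library. The gene was 1.30-fold higher in LAMP2A than in VT (log2 0.38, SE 0.0343), and its difference between LAMP2A+DM-αKG and LAMP2A did not pass (log2 0.05, SE 0.0335).

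Ndufa4l2 encodes a relative of a subunit of respiratory complex IV and is known to lower mitochondrial oxygen use in hypoxia. It lies at chr10:127514967-127517154 on the plus strand. Its level was 67.4, 65.4 and 68.4 CPM in LAMP2A+DM-αKG, 5.05, 5.22 and 5.34 in LAMP2A, and 14.2, 14.2 and 13.4 in VT. No libraries of different groups overlapped, and LAMP2A was lowest. The fold of 12.9 between LAMP2A+DM-αKG and LAMP2A (log2 3.69, SE 0.0566) was the largest among the 10 genes in that comparison. LAMP2A was 2.68-fold below VT (log2 -1.42, SE 0.0744), and LAMP2A+DM-αKG was 4.82-fold above VT (log2 2.27, SE 0.0487). Ndufa4l2 overlaps Shmt2 on the other strand by 32 bases, and the strand setting of the counting is not given in the sources used here. Shmt2 was far more abundant, with means of 435 CPM in LAMP2A+DM-αKG, 132 in LAMP2A and 312 in VT, in the same order as Ndufa4l2.

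Ak4 encodes adenylate kinase 4 of the mitochondrial matrix, which helps balance adenine nucleotides. At chr4:101419277-101466995 (plus strand), it had 193, 203 and 197 CPM in LAMP2A+DM-αKG, 64.0, 64.2 and 65.8 in LAMP2A, and 114, 117 and 119 in VT. As for Ndufa4l2, LAMP2A was lowest and the treated cells were highest without overlap. The level was 3.06-fold higher in LAMP2A+DM-αKG than in LAMP2A (log2 1.61, SE 0.0328) and 1.81-fold lower in LAMP2A than in VT (log2 -0.85, SE 0.0339).

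Ero1l encodes the oxidase ERO1α of the endoplasmic reticulum, which reoxidises protein disulfide isomerase during disulfide bond formation. Located at chr14:45283087-45318771 (minus strand), it had 143, 145 and 144 CPM in LAMP2A+DM-αKG, 71.8, 71.1 and 72.4 in LAMP2A, and 68.8, 67.1 and 73.3 in VT. LAMP2A lay within the VT range, and the treated libraries were apart from both. Ero1l was 2.01-fold higher in LAMP2A+DM-αKG than in LAMP2A (log2 1.01, SE 0.0340) and 2.06-fold higher than in VT. Its log2 fold change between LAMP2A and VT was 0.04 (SE 0.0363) and did not pass. Without VT replicate 3, the value was 0.08 and passed.

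Bhlhe40 encodes a basic helix-loop-helix repressor of transcription, also known from the circadian clock. Located at chr6:108660629-108666925 (plus strand), it had 154, 150.4 and 155 CPM in LAMP2A+DM-αKG, 43.2, 43.2 and 45.6 in LAMP2A, and 75.2, 71.7 and 69.7 in VT. It shared its order with Ak4 and Ndufa4l2, highest in the treated cells and lowest in LAMP2A, without overlap. LAMP2A+DM-αKG was 3.49-fold above LAMP2A (log2 1.80, SE 0.0364), and LAMP2A was 1.64-fold below VT (log2 -0.72, SE 0.0388).

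Ankrd37, an ankyrin-repeat protein gene at chr8:45996902-46005707 (minus strand), was among the less abundant members. It had 10.5, 8.59 and 9.75 CPM in LAMP2A+DM-αKG, 3.83, 4.16 and 4.33 in LAMP2A, and 3.99, 4.29 and 4.05 in VT. LAMP2A and VT overlapped and had the same mean, 4.11 CPM, so only the treated cells stood apart, 2.34-fold above LAMP2A (log2 1.23, SE 0.0917). The gene overlaps Lrp2bp, which was at most 0.168 CPM in any library, and the end of Ufsp2 by 57 bases. Ufsp2 was more abundant than Ankrd37, with means of 29.8 CPM in LAMP2A+DM-αKG, 25.1 in LAMP2A and 22.2 in VT. It was 1.18-fold higher in LAMP2A+DM-αKG than in LAMP2A.

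Ndrg1 encodes a cytoplasmic protein induced by stress and differentiation, at chr15:66929318-66969640 on the minus strand. Its level was 54.1, 52.1 and 51.5 CPM in LAMP2A+DM-αKG, 19.1, 20.8 and 18.8 in LAMP2A, and 14.7, 15.8 and 16.2 in VT. The 3 groups were fully separate, with LAMP2A+DM-αKG highest, LAMP2A next and VT lowest. The fold was 2.68 between LAMP2A+DM-αKG and LAMP2A (log2 1.42, SE 0.0483) and 1.25 between LAMP2A and VT (log2 0.33, SE 0.0591).

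Vegfa and Adm encode secreted ligands. VEGFA drives the growth of blood vessels and binds the receptors KDR and FLT1, and adrenomedullin is a vasodilator peptide. Vegfa (chr17:46016993-46032369, minus strand) had 188, 184 and 186 CPM in LAMP2A+DM-αKG, 105, 103 and 107 in LAMP2A, and 67.2, 65.7 and 65.9 in VT. Like Ndrg1, it was highest in LAMP2A+DM-αKG, then in LAMP2A and lowest in VT, without overlap. It was 1.77-fold higher in LAMP2A+DM-αKG than in LAMP2A (log2 0.82, SE 0.0306) and 1.59-fold higher in LAMP2A than in VT (log2 0.67, SE 0.0335).

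Adm (chr7:110627661-110629820, plus strand) ran the other way. It was sparsely counted, with 15, 24 and 27 counts in LAMP2A+DM-αKG, 58, 58 and 44 in LAMP2A, and 3 in each VT library. In CPM these were 0.631, 0.924 and 0.898, then 1.76, 1.80 and 1.64, and then 0.123, 0.111 and 0.112. The groups did not overlap and LAMP2A was highest, 2.10-fold above LAMP2A+DM-αKG (log2 fold change of LAMP2A+DM-αKG over LAMP2A -1.07, SE 0.195). Against the 9 counts of VT, the summed counts gave a ratio of 7.19 for LAMP2A+DM-αKG (95% exact interval 3.57 to 16.4) and of 15.1 for LAMP2A (7.78 to 33.7), where the intervals cover counting error only.

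Levels per length rank the genes within a group (mean CPM per kilobase of merged exons, GENCODE vM21). In LAMP2A+DM-αKG, Bnip3 was highest at 67.3 CPM per kb, followed by Ndufa4l2 at 61.2 and Vegfa at 43.4. Bnip3l led in LAMP2A at 33.3 CPM per kb and in VT at 25.6, where Bnip3 and Ak4 lay close to it at 25.2 each. Ndufa4l2 held rank 2 of the 10 genes in LAMP2A+DM-αKG and rank 7 in both LAMP2A and VT. Adm was last in all groups, at 0.505 CPM per kb in LAMP2A+DM-αKG, 1.07 in LAMP2A and 0.0712 in VT.

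Counted by the test (edgeR quasi-likelihood, Benjamini-Hochberg adjusted p under 0.05 over 14513 genes), 8 of the 10 genes were higher in LAMP2A+DM-αKG than in LAMP2A, 1 (Adm) was lower and 1 (Bnip3l) did not pass. Of all genes tested, 41.1% were higher and 42.1% lower. The median log2 fold change was 1.26 over the 10 genes and -0.00 over all genes, and 7 of the 10 were at least 2-fold higher and 1 at least 2-fold lower, as were 8.06% and 17.6% of all genes. The groups did not overlap in 8 higher and 1 lower, and in 42.3% and 43.2% of all genes. In LAMP2A+DM-αKG against VT all 10 were higher, where 29.3% of all genes were higher and 29.3% lower. The median there was 1.32, against 0.00 over all genes, and 8 were at least 2-fold higher and 0 at least 2-fold lower, as were 3.93% and 2.63% of all genes. All 10 lay above VT without overlap, as did 30.9% of all genes, while 30.3% lay below. In LAMP2A against VT, 5 were higher (Bnip3, Bnip3l, Ndrg1, Vegfa, Adm), 3 lower (Ndufa4l2, Ak4, Bhlhe40) and 2 did not pass (Ero1l, Ankrd37), where 43.0% of all genes were higher and 42.1% lower. The median was 0.08, against 0.01 over all genes, and 1 was at least 2-fold higher (Adm) and 1 at least 2-fold lower (Ndufa4l2), as were 19.8% and 9.61% of all genes. Without overlap between the groups, 5 were higher and 3 lower, as were 43.1% and 41.9% of all genes. As the genes were chosen with these comparisons known, nothing is read from the counts. The comparisons share groups, so they are not independent of each other. In the authors' deposited table, the log2 fold change of LAMP2A+DM-αKG over LAMP2A was 3.69 for Ndufa4l2, 1.80 for Bhlhe40 and -1.08 for Adm.

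**Figure D2:**
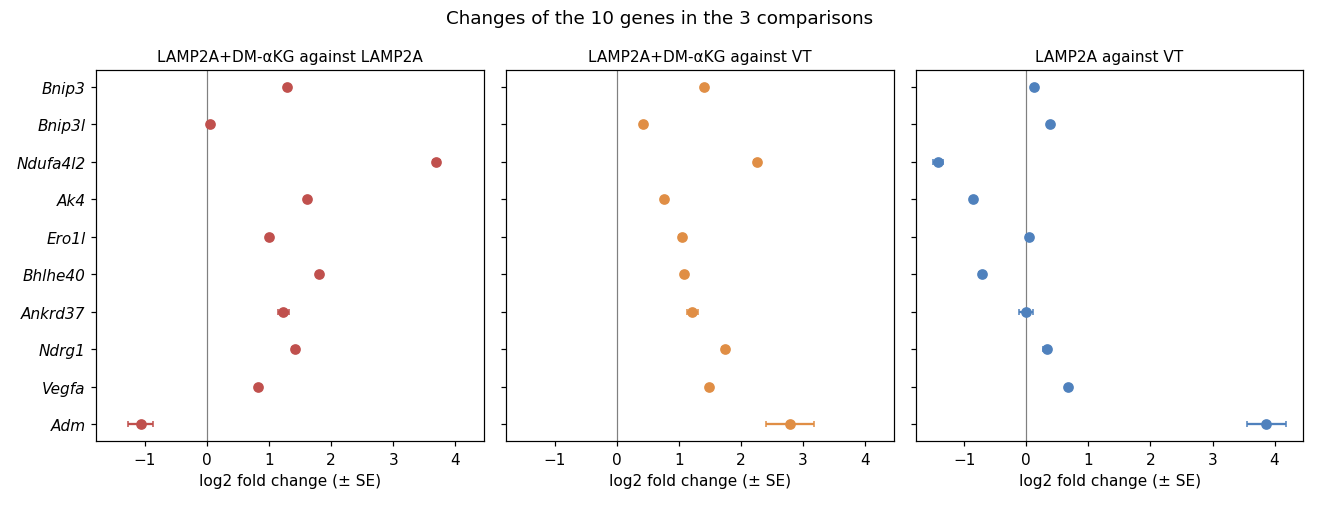
Log2 fold change of each of the 10 genes, with its standard error, in the 3 comparisons (LAMP2A+DM-αKG over LAMP2A, LAMP2A+DM-αKG over VT, LAMP2A over VT). Ndufa4l2 spans the widest range between the treated comparison (3.69) and LAMP2A against VT (-1.42), and Adm has the opposite signs (-1.07 and 3.87).

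Paralogs of the 10 genes give a view of their families. Of 10 paralogs, 6 were higher and 3 lower in LAMP2A+DM-αKG than in LAMP2A, where 41.1% of all genes were higher and 42.1% lower. Ndrg2, a relative of Ndrg1, averaged 57.5 ± 2.19 CPM in LAMP2A+DM-αKG, 6.00 ± 0.276 in LAMP2A and 29.7 ± 0.564 in VT. It was 9.53-fold higher in LAMP2A+DM-αKG than in LAMP2A (adjusted p = 5.3e-33) and 4.93-fold lower in LAMP2A than in VT (adjusted p = 4.1e-27), so its LAMP2A level was below VT where that of Ndrg1 was above. Ndrg4 had yet another order, with 13.2 ± 0.241, 20.9 ± 0.718 and 27.7 ± 1.33 CPM in LAMP2A+DM-αKG, LAMP2A and VT. Ero1lb, the other ERO1 gene, was 2.13-fold higher in LAMP2A+DM-αKG (11.3 ± 1.02 CPM) than in LAMP2A (5.28 ± 0.251), with adjusted p = 3.2e-14. Ndufa4, the complex IV relative of Ndufa4l2, was 1.34-fold higher in LAMP2A+DM-αKG than in LAMP2A (adjusted p = 4.3e-14), with 162 ± 3.61 CPM in LAMP2A+DM-αKG, 121 ± 0.748 in LAMP2A and 170.4 ± 6.82 in VT. Bhlhe41 averaged 2.41 ± 0.540 CPM in LAMP2A+DM-αKG, 2.89 ± 0.471 in LAMP2A and 1.18 ± 0.223 in VT.

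Other mitophagy genes were mixed in direction. The 14 listed cover partners of BNIP3 and BNIP3L and genes of other mitophagy routes, such as Fundc1 and Pink1. Of these 14 genes, 2 were higher and 6 lower in LAMP2A+DM-αKG than in LAMP2A, and 3 were higher and 6 lower than in VT. The shares of all genes were 41.1% higher and 42.1% lower against LAMP2A, and 29.3% each against VT. Among the ATG8 proteins, which BNIP3 and BNIP3L bind, Gabarap fell to 68.4 ± 1.57 CPM in LAMP2A+DM-αKG, against 116 ± 0.726 in LAMP2A (adjusted p = 5.1e-20). Gabarapl2 rose to 38.7 ± 1.99 CPM, against 17.8 ± 0.656 in LAMP2A (adjusted p = 3.2e-19). Bcl2l1, the survival protein BCL-XL, was 1.86-fold lower in LAMP2A+DM-αKG (67.0 ± 1.61 CPM) than in LAMP2A (125 ± 3.94), with adjusted p = 2.1e-21. Pink1, the kinase of the ubiquitin route of mitophagy, was 1.42-fold higher in LAMP2A+DM-αKG (28.7 ± 1.12 CPM) than in LAMP2A (20.3 ± 0.974), with adjusted p = 2.2e-10.

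Folding partners of ERO1α were higher in LAMP2A than in VT in 9 of 9 cases, where Ero1l itself did not pass. All genes tested were higher there in 43.0% and lower in 42.1% of cases. In LAMP2A+DM-αKG against LAMP2A, 2 of the 9 were higher and 7 lower, while Ero1l was higher. The shares of all genes there were 41.1% higher and 42.1% lower. Against VT, 8 of the 9 were higher in LAMP2A+DM-αKG and 0 lower, and Ero1l was also higher. All genes tested were higher in 29.3% and lower in 29.3% of cases against VT. P4hb, the protein disulfide isomerase that ERO1α oxidises, averaged 939 ± 14.6 CPM in LAMP2A+DM-αKG, 1155 ± 4.69 in LAMP2A and 698 ± 16.0 in VT. The peroxidase gene Gpx8 had 4.08 ± 0.422, 24.5 ± 0.681 and 2.55 ± 0.125 CPM in the same groups. The chaperone gene Hspa5 (BiP) was 1.27-fold higher in LAMP2A+DM-αKG (2081 ± 34.9 CPM) than in LAMP2A (1641 ± 13.1), with adjusted p = 5.7e-13.

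Of the receptor genes for these secreted ligands and their relatives, Flt1, Nrp1, Nrp2, Kdr, Calcrl and Ramp3 were most abundant in LAMP2A. Flt4 was least abundant there, and the mean of Ramp2 was highest in LAMP2A+DM-αKG. Flt1, which binds VEGFA, had 1.23 ± 0.224 CPM in LAMP2A+DM-αKG, 37.5 ± 0.673 in LAMP2A and 0.498 ± 0.0175 in VT. The co-receptor gene Nrp1 had 0.458 ± 0.0769, 54.7 ± 1.23 and 0.545 ± 0.150 CPM in these groups, and Nrp2 had 10.1 ± 0.415, 101 ± 1.29 and 12.1 ± 0.391. Kdr, also on the endothelial list, was likewise highest in LAMP2A but at a lower level, with 0.790 ± 0.169 CPM in LAMP2A+DM-αKG, 5.90 ± 0.462 in LAMP2A and 1.19 ± 0.0702 in VT. All 4 of these VEGF receptor genes were lower in LAMP2A+DM-αKG than in LAMP2A (adjusted p from 1.2e-35 to 7.5e-19), the reverse of Vegfa itself. Flt4, a receptor for VEGFC, went the other way, with 15.7 ± 0.508 CPM in LAMP2A+DM-αKG, 8.76 ± 0.778 in LAMP2A and 14.9 ± 1.74 in VT. It was 1.79-fold higher in LAMP2A+DM-αKG than in LAMP2A (adjusted p = 4.0e-12) and 1.68-fold lower in LAMP2A than in VT (adjusted p = 7.4e-11). In LAMP2A+DM-αKG against LAMP2A, 7 of the 9 other VEGF ligands and receptors were lower and 2 higher, beside 42.1% and 41.1% of all genes. With only genes averaging 5 CPM or more fitted, 4 of 6 were lower in that comparison. Vegfc, a ligand of lymphatic vessel growth, was 2.59-fold higher in LAMP2A+DM-αKG (26.2 ± 0.352 CPM) than in LAMP2A (10.1 ± 0.492), with adjusted p = 1.2e-21. The adrenomedullin receptor gene Calcrl had 0.495 ± 0.143 CPM in LAMP2A+DM-αKG, 8.99 ± 0.306 in LAMP2A and 0.118 ± 0.0845 in VT, the same order as Adm. The related ligand gene Adm2 was instead 7.12-fold higher in LAMP2A+DM-αKG (3.28 ± 0.0977 CPM) than in LAMP2A (0.464 ± 0.116), with adjusted p = 3.7e-15. Ramp3, also an adrenomedullin receptor gene, had 5.84 ± 0.338 CPM in LAMP2A+DM-αKG, 7.46 ± 0.395 in LAMP2A and 5.60 ± 0.0786 in VT. Ramp2 had 2.01 ± 0.406, 1.79 ± 0.161 and 1.09 ± 0.311 CPM in these groups. Its difference between LAMP2A+DM-αKG and LAMP2A did not pass (adjusted p = 0.322). The summed level of fibroblast and smooth muscle markers was also highest in LAMP2A, as given above. The part of these markers in the receptor levels was not tested.

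**Figure D3:**
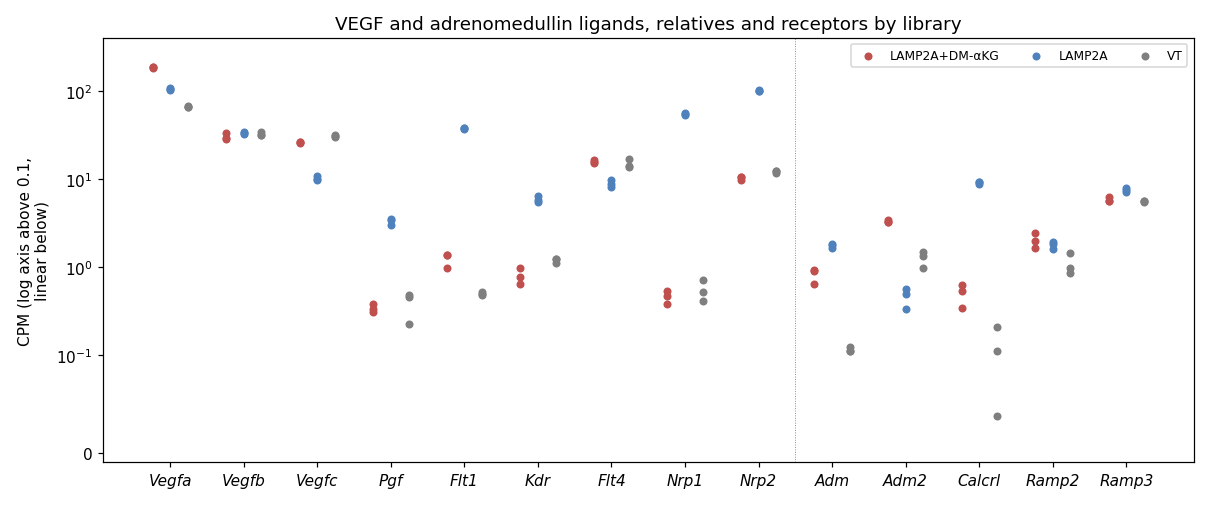
Level of VEGF ligand and receptor genes (left of the dotted line) and of adrenomedullin ligand and receptor genes (right) in every library, in CPM on an axis that is logarithmic above 0.1 and linear below, by group (LAMP2A+DM-αKG, LAMP2A, VT). Vegfa is highest in LAMP2A+DM-αKG (186 CPM on average), whereas Adm, Flt1, Kdr, Nrp1, Nrp2 and Calcrl are highest in LAMP2A.

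Further HIF targets outside glycolysis, a list of 30 genes, gave a mixed picture. In LAMP2A+DM-αKG against LAMP2A, 15 were higher and 13 lower (median log2 fold change 0.17), and in LAMP2A against VT 18 were higher and 9 lower (0.63). Against VT, 23 were higher in LAMP2A+DM-αKG and 2 lower (0.57). The shares of all genes, higher and lower, were 41.1% and 42.1%, 43.0% and 42.1%, and 29.3% and 29.3% in these comparisons. Egln3, a HIF prolyl hydroxylase gene and itself a HIF target, had 59.6 ± 2.28 CPM in LAMP2A+DM-αKG, 36.3 ± 1.53 in LAMP2A and 23.3 ± 1.08 in VT, the order of Vegfa and Ndrg1. P4ha2, a collagen prolyl hydroxylase gene, was 3.27-fold higher in LAMP2A than in VT (adjusted p = 2.3e-26), and its means of 54.6 ± 2.06 CPM in LAMP2A+DM-αKG and 53.1 ± 2.02 in LAMP2A did not differ past the threshold (adjusted p = 0.367). The endothelin gene Edn1 was, like Adm, highest in LAMP2A, with 1.08 ± 0.155 CPM in LAMP2A+DM-αKG, 21.1 ± 0.610 in LAMP2A and 1.21 ± 0.277 in VT. Tfrc, the transferrin receptor, matched the order of Ak4 with 934 ± 15.7 CPM in LAMP2A+DM-αKG, 460.4 ± 2.28 in LAMP2A and 722 ± 28.8 in VT.

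Among glycolytic HIF targets, 19 of 20 were tested. In LAMP2A+DM-αKG against LAMP2A, 17 were higher and 0 lower (median log2 fold change 0.99), while Slc2a3 and Pfkfb4 did not pass. The count of 0 was also 0 at an unadjusted p under 0.05, and DESeq2 called 1, Slc2a3. In LAMP2A against VT, 4 were higher and 14 lower (-0.49). Against VT, 16 were higher in LAMP2A+DM-αKG and 0 lower (0.52). The shares of all genes, higher and lower, were 41.1% and 42.1%, 43.0% and 42.1%, and 29.3% and 29.3% in these comparisons. Pfkp, a phosphofructokinase gene, had 529 ± 3.26 CPM in LAMP2A+DM-αKG, 131 ± 0.674 in LAMP2A and 401 ± 4.58 in VT, and Hk2, a hexokinase gene, had 744 ± 9.75, 299.7 ± 2.55 and 733 ± 17.1. Their LAMP2A level was the lowest, as for Ndufa4l2, Ak4 and Bhlhe40. The glucose transporter gene Slc2a1 instead had 1360.3 ± 12.9 CPM in LAMP2A+DM-αKG, 1205 ± 8.17 in LAMP2A and 622 ± 17.1 in VT, in the order of Vegfa and Ndrg1.

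**Figure D4:**
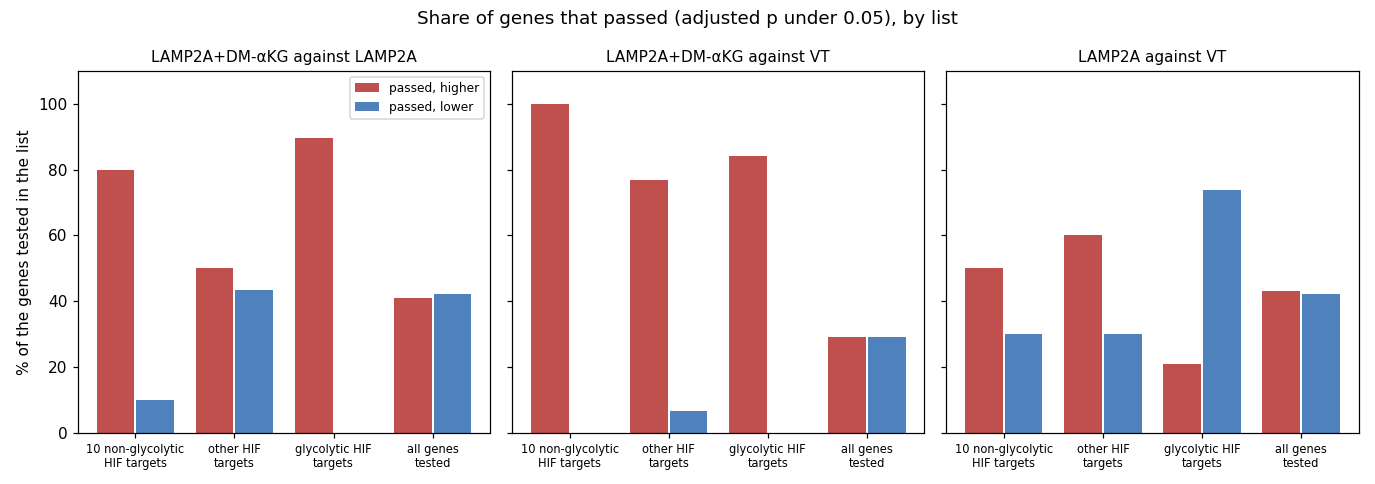
Share of tested genes that passed as higher or as lower, in percent, for the 10 genes, other HIF targets, glycolytic HIF targets and all genes tested, in each comparison (bars from 0). In LAMP2A+DM-αKG against LAMP2A the shares higher are 80% of the 10 genes, 50% of other HIF targets, 89.5% of glycolytic HIF targets and 41.1% of all genes.

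Genes that regulate HIF, 16 in all, were divided: 6 were higher and 6 lower in LAMP2A+DM-αKG than in LAMP2A, and 7 higher and 5 lower in LAMP2A than in VT. The shares of all genes, higher and lower, were 41.1% and 42.1% in the first comparison and 43.0% and 42.1% in the second. Hif1a transcripts were 1.25-fold lower in LAMP2A+DM-αKG (146 ± 3.98 CPM) than in LAMP2A (183 ± 2.09), with adjusted p = 1.6e-11, and did not differ past the threshold between LAMP2A and VT (183 ± 5.63; adjusted p = 0.854). Epas1 (HIF2α) had 87.7 ± 1.80 CPM in LAMP2A+DM-αKG, 55.7 ± 1.38 in LAMP2A and 131 ± 7.93 in VT, lowest in LAMP2A but, unlike the 10 genes, highest in VT. Egln1, the main HIF prolyl hydroxylase gene, had 84.4 ± 1.90, 75.9 ± 1.90 and 40.6 ± 0.610 CPM in these groups and was 1.87-fold higher in LAMP2A than in VT (adjusted p = 1.4e-21). Hif1an, the asparaginyl hydroxylase that also uses α-ketoglutarate, was 1.38-fold lower in LAMP2A+DM-αKG (98.6 ± 0.818 CPM) than in LAMP2A (136 ± 2.13), with adjusted p = 2.2e-14.

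Likeness of pattern was measured as the root mean square difference of log2 CPM over the 9 libraries, each gene centred on its mean. The search covered 10354 genes that averaged 5 CPM or more (10355 for Adm), with predicted and clone symbols (such as Gm and Rik) left out. The gene nearest to Vegfa was Egln3 (0.0822), and the one nearest to Bhlhe40 was Pdk4 (0.0706), which encodes a pyruvate dehydrogenase kinase. Nearest to Bnip3l was Tram1 (0.0263), to Ak4 Trp53i11 (0.0568), to Ero1l Fam63b (0.0819) and to Ankrd37 Nova2 (0.102). The values were larger for Bnip3 with Proser2 (0.127), Ndrg1 with Slc30a10 (0.134), Ndufa4l2 with Sh2d4a (0.262) and Adm with Tinagl1 (0.288). Among the 10 genes themselves, Ankrd37 and Ero1l lay 0.134 apart, Ankrd37 and Bnip3 0.138, and Ak4 and Bhlhe40 0.144. Ndufa4l2 was 0.776 from its nearest member, Bhlhe40, and Adm was 1.21 from its nearest, Vegfa. These distances are descriptions over libraries that share 3 groups.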

How the data were processed

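RNA was sequenced from 9 libraries of D3 mouse ES cells, in 3 groups of 3 by the treatment label, from a stranded Illumina TruSeq mRNA kit per the labels' protocols. The deposited values are whole-number read counts per gene, not normalized. The submitters' processing notes name STAR 2.7.1, HTSeq 0.11.2, DESeq2 and the build mm10. Which annotation and strand setting were used is not given in the sources used here. The authors' deposited comparison tables give, per the file headers, a mean signal, a log2 fold change and its error, a test score, and raw and adjusted p-values. Only their log2 values are printed here.

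The test was edgeR 4.0.16 in R 4.3.3 (TMM, filterByExpr, robust quasi-likelihood), run on all 9 libraries together and leaving 6 residual degrees of freedom. Of 24421 genes 14513 were tested, p-values were adjusted by Benjamini-Hochberg over them, and a gene passed under 0.05. Between replicates the estimated coefficient of variation (common dispersion) was only 2.74%, so small differences pass. The steps were tested on simulated data. Replicate libraries differed by more than counting error (chi-square over its degrees of freedom 1.19 to 5.66), and each counted as 1 sample.

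The 10 genes and all lists were chosen with earlier results of these data known. From each list the text names up to 4 genes with the smallest p per comparison and a mean of at least 5 CPM, plus paralogs and receptors of the 10 genes; Slc2a3 and Pfkfb4, as not passing, and Flt4 and the endothelial markers, chosen after their values were seen, are also named. Some genes that the rule picks are not reported here. Alternatives were RLE factors, DESeq2 1.42.0, no filter, a mean of at least 5 CPM, the 6 libraries of a comparison, a replicate block, a tested minimum fold of 1.5 (glmTreat), and each library left out. Gene positions are from GENCODE vM21 (mm10).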

Additional observations from a re-analysis of the deposited data

How the results depend on the processing

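Over 477 recomputed log2 fold changes of the 10 genes, 463 kept their direction and side of the threshold, 5 no longer passed, 3 newly passed and 6 changed sign without passing in either fit. Those were Ankrd37 in LAMP2A against VT, where the log2 fold change of -0.0073 became 0.0041 with RLE factors, 0.0053 with DESeq2, 0.049 with a mean of at least 5 CPM and -0.041 to 0.043 with libraries left out, and Bnip3l in LAMP2A+DM-αKG against LAMP2A, where 0.05 became -0.00097 under that same filter. The largest shift was 0.14, for Adm without LAMP2A+DM-αKG replicate 1. With a tested minimum fold of 1.5, 2 of the 10 genes were higher in LAMP2A than in VT instead of 5. With a mean of at least 5 CPM, 0 were lower in LAMP2A+DM-αKG than in LAMP2A, because Adm was not tested. The count of glycolytic genes lower in LAMP2A+DM-αKG than in LAMP2A was 1 (Slc2a3) with RLE factors, DESeq2, the mean of at least 5 CPM or the 6 libraries alone, and 0 to 1 with libraries left out (1 without each VT replicate); the cause was not tested. Between LAMP2A and VT, Bnip3 had an adjusted p of 0.0522 without VT replicate 1 (1.7e-04 to 1 over all settings by edgeR or DESeq2), and Ero1l had 0.0465 without VT replicate 3 and 0.0147 with the mean of at least 5 CPM (0.0147 to 1 over all settings). Bnip3l passed between LAMP2A+DM-αKG and LAMP2A when only those 6 libraries were fitted (adjusted p 0.0427 by edgeR, 0.0427 to 1 over all settings). Samples with the same replicate number did not deviate together (correlations -0.0721 to 0.0766, and 6 of 18 best matches were the own number), so no pairing by number was seen. With 3 libraries per group, this check cannot exclude one. With the replicate block the counts of the 10 genes stayed at 8 higher and 1 lower in LAMP2A+DM-αKG against LAMP2A, 5 and 3 in LAMP2A against VT, and 10 and 0 in LAMP2A+DM-αKG against VT. Depth limits Adm most, with 9 counts in all VT libraries.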
